A study of Rattus norvegicus with 82 samples.

Results

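The unfolded protein and amino acid response was followed through 35 listed genes in rat heart, out of 14217 genes that had a symbol of their own on the array. The genes were taken by symbol from the probe annotation, and all 35 were found. A gene with several probe sets was represented by the one that was brightest on average over the 82 arrays. They form an ER chaperone branch of 20 genes and an ATF4 branch of 15 genes. Each array measured the heart of 1 male Wistar (Crl:Wi(Han)) rat after a single intravenous injection. Vinblastine was given at 3 or 0.5 mg/kg, vincristine at 1 or 0.1 mg/kg, colchicine at 2 or 0.2 mg/kg, and vehicle animals received saline alone. Hearts were taken at 6 or 24 h, which makes 14 groups of 6 animals, with 5 in the vincristine 0.1 mg/kg groups at both times. The labels give no age and no treatment other than the injection.

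All 3 compounds bind tubulin and stop microtubules from forming. When unfolded proteins build up in the endoplasmic reticulum (ER), the sensors IRE1 and ATF6 switch on the transcription factors XBP1 and cleaved ATF6. These raise chaperones, protein disulfide isomerases and the machinery that removes misfolded proteins. The sensor PERK, and other kinases that sense amino acid shortage or heme loss, phosphorylate the initiation factor eIF2alpha, which slows translation but favours ATF4. ATF4 in turn raises genes for amino acid uptake and synthesis, and Ddit3 (CHOP) and Ppp1r15a, whose product restores translation. The ATF4 branch can therefore act without ER stress, which is why the branches were described apart.

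To be tested, a member had to exceed the 40th percentile of the values on 5 arrays or more, and 34 of 35 did so. Psat1, an enzyme of serine synthesis, was above on 3 arrays and was not tested. Asns, asparagine synthetase, was above on 38 arrays but on 0 of the 12 saline arrays, so it passed only through groups where it was high and had to differ. Counts of the ATF4 branch over all arrays are therefore given for 14 members and for the 13 without Asns. The p-values and overlaps of Asns are printed as values and lend no support to a response of the branch. The other 33 members were above the percentile on 82 of 82 arrays. Changes are log2 differences of (intensity + 16) with the standard error of a limma fit over 82 arrays. A call is an adjusted p under 0.05 (Benjamini-Hochberg over 11323 genes). Over all genes only calls were counted. Counts of members under an unadjusted p, or without overlap, have no share of all genes beside them and describe the members alone. Intensities are mean ± SD with n = 6 unless stated.

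The profiles of 10 arrays lay more than 1.3 times nearer to another group than to their own. Of the higher doses at 6 h, colchicine contributed replicate 4, vincristine replicate 3 and vinblastine replicate 1. Of the higher doses at 24 h, colchicine contributed replicate 1. The other 6 came from lower doses: replicates 1 and 6 (colchicine) and 6 (vinblastine) at 6 h, and replicates 6 (colchicine), 5 (vinblastine) and 5 (vincristine) at 24 h. The ratio ran from 1.41 to 3.20, highest for colchicine 2 mg/kg replicate 1 at 24 h, which lay nearest the colchicine 0.2 mg/kg group of its time. All arrays were kept as labelled, but the labels of these 10 are in doubt. In the ATF4 branch described below, some lower-dose arrays among them lay up to 0.62 log2 above saline, and the colchicine 2 mg/kg arrays among them lay at -0.04 and 0.08. Whether samples or labels were exchanged was not tested, and the values of groups that hold such an array depend on it. Counts without the 10 are given with the comparisons. The 10 were picked from these same profiles, so a count without them is no independent check. The summed level of 7 cardiomyocyte markers ran from 130110 to 165400 in the saline animals and from 124592 to 172515 in the treated ones, so these markers were bright in every group. In whole heart, fewer cells of a type and less RNA per cell cannot be told apart.

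Many ER chaperone genes are known to be switched on through short promoter motifs that ATF6 and XBP1 bind, and ATF4 acts through a motif of its own, so the stretch before the start of 7 members is shown. The promoters are those of RefSeq on GRCr8, from 250 bases before the start of transcription to 50 after it. The search covered both strands for the ER stress element (ERSE: CCAAT, 9 bases, CCACG), ERSE-II (ATTGG, 1 base, CCACG), the unfolded protein response element (UPRE: TGACGTG) and the composite site of C/EBP and ATF factors (CARE: TGATGNAA). Capitals mark the motifs found, in the 250 bases before the start. The first 5 genes hold an ERSE and belong to the ER chaperone branch, and Trib3 and Nupr1 hold a CARE and belong to the ATF4 branch.
Hspa5: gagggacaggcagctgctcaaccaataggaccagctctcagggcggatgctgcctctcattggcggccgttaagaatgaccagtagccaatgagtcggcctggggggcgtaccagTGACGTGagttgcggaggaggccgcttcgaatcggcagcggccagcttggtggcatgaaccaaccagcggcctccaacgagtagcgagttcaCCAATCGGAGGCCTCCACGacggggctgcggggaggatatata
Hsp90b1: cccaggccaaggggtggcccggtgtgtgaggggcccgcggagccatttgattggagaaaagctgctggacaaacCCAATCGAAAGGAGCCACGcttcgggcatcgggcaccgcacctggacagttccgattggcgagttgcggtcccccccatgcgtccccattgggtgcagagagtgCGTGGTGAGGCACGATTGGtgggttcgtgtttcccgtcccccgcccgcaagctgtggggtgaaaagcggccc
Dnajc3: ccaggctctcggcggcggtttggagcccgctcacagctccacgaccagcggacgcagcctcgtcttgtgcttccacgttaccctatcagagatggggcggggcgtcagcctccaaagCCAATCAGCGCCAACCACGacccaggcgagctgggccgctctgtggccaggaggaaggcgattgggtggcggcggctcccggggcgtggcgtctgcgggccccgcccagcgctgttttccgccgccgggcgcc
Creld2: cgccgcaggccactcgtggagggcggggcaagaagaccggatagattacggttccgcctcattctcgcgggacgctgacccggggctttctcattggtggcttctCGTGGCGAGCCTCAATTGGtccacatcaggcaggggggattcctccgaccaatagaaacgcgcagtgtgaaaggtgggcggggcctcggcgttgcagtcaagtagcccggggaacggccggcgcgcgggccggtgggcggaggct
Xbp1: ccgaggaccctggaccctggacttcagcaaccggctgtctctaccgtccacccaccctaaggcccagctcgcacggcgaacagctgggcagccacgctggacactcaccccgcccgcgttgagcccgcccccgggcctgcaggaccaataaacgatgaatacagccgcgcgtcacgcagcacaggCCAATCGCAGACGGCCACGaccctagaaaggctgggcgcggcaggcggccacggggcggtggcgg
Trib3: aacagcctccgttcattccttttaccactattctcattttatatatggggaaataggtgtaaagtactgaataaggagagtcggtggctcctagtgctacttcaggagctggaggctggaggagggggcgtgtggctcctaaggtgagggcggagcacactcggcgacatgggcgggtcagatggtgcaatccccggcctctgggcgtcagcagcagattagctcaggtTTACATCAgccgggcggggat
Nupr1: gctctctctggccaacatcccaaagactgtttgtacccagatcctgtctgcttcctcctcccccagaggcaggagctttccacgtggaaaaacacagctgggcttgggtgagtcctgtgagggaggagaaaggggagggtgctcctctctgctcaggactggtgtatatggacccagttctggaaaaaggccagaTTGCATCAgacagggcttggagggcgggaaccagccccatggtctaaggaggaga
Each sequence reads in the direction of the gene. Hspa5 lies at chr3:38452766-38453015 on the plus strand and holds a UPRE 135 bases and an ERSE 43 bases before the start. Hsp90b1 lies at chr7:23012294-23012543 on the minus strand, with an ERSE in each orientation, 176 and 72 bases before the start. Dnajc3 lies at chr15:102432417-102432666 (plus, ERSE at 133 bases), Creld2 at chr7:121789134-121789383 (plus, reversed ERSE at 145 bases) and Xbp1 at chr14:84604373-84604622 (plus, ERSE at 65 bases). Trib3 lies at chr3:161275534-161275783 (minus, reversed CARE at 21 bases) and Nupr1 at chr1:190645902-190646151 (minus, reversed CARE at 55 bases).

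Of 16 ER chaperone promoters in the table, 7 held an ERSE (43.75%), against 22 of all 33469 promoters of 300 bases (0.0657%). The other 2 of these were Calr and Canx. An ERSE-II was found in 3 of 16 (18.75%), Dnajb11, Herpud1 and Hyou1, against 17 of all promoters (0.0508%). Together 10 of 16 (62.5%) held one of these elements, against 39 of all promoters (0.117%) and 0 of 14 in the ATF4 branch. A CARE was found in 3 of 14 ATF4 branch promoters (21.4%), Trib3, Chac1 and Nupr1, in 1 of 16 ER chaperone promoters, Herpud1, and in 3.98% of all promoters. A UPRE was found in Hspa5 and Hyou1, where it overlaps an ERSE-II, and in 1.81% of all promoters. Dnajb9, Sdf2l1, Pdia4, Sel1l, Edem1 and Syvn1 held none of the 4 motifs in this window. Atf6, Pdia3, Pdia6, Manf and Eif4ebp1 had no entry. A match describes letters in a window and is no measure of binding. The motifs were searched because such genes are known to use them, and all promoters include those of the members. The shares are therefore description and no result of these arrays.

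At the higher doses ATF4 members other than Asns rose at both times with colchicine. With vinblastine they rose at 6 h, and with vincristine at 24 h. Most ER chaperone calls came at 24 h. The counts raised at 6 h with vinblastine, vincristine and colchicine were 11, 1 and 7 of 14 ATF4 members (10, 0 and 6 of 13 without Asns) and 5, 0 and 0 of 20 ER chaperones. The shares of all genes raised there were 15.7%, 2.05% and 4.89%. At 24 h the counts were 0, 7 and 10 ATF4 members (0, 6 and 9 without Asns) and 11, 9 and 17 ER chaperones, beside 5.29%, 12% and 19.3% of all genes. The mean over a branch was then read per animal, relative to the vehicle mean of the same time. For the ER chaperone branch it was 0.14 ± 0.25 log2 with vinblastine 3 mg/kg at 6 h and 0.38 ± 0.12 at 24 h. With vincristine 1 mg/kg it was -0.01 ± 0.18 at 6 h and 0.28 ± 0.08 at 24 h, and with colchicine 2 mg/kg it was -0.08 ± 0.09 and then 0.65 ± 0.26. The vehicle animals spread with an SD of 0.10 at 6 h and 0.08 at 24 h, so the ER chaperone means at 24 h stood clear of the vehicle spread.

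For the ATF4 branch the mean was 0.65 ± 0.20 with vinblastine 3 mg/kg at 6 h, in animals from 0.48 to 1.03, and 0.13 ± 0.08 at 24 h. For vincristine 1 mg/kg it was 0.40 ± 0.26 at 6 h and 0.38 ± 0.05 at 24 h. The 6 h animals ran from -0.02 to 0.64, and the lowest was replicate 3, one of the 10 arrays set apart. For colchicine 2 mg/kg it was 0.48 ± 0.26 at 6 h (from -0.04 to 0.66) and 0.66 ± 0.31 at 24 h (from 0.08 to 0.88). The lowest animal was again one of the 10 arrays at each time, and the saline animals ran from -0.07 to 0.13 over both times. This mean was taken over all 15 listed members, so Asns and the dim, untested Psat1 are in it.

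**Figure D1:**
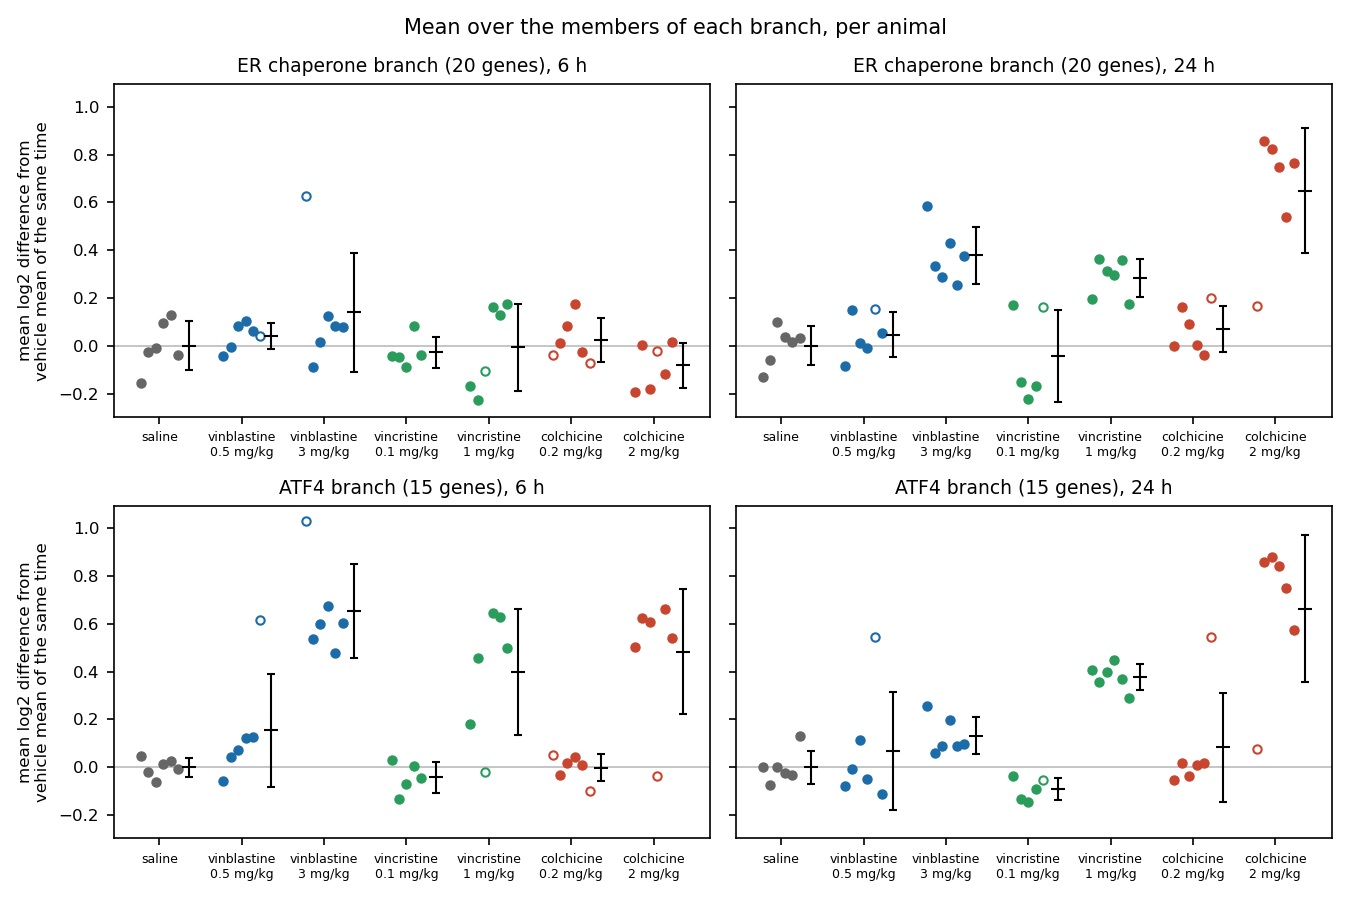
Mean log2 difference from the vehicle mean of the same time over the 20 ER chaperone members (top) and all 15 ATF4 members, the untested Psat1 included (bottom), for each animal (circles) in the 7 groups at 6 h and at 24 h, with the group mean ± SD in black; open circles are the 10 arrays set apart. ER chaperone means of the higher-dose groups lie above vehicle at 24 h, up to 0.65 ± 0.26 with colchicine 2 mg/kg, while ATF4 means are already raised at 6 h, up to 0.65 ± 0.20 with vinblastine 3 mg/kg.

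At the lower doses 0 of 34 members passed the threshold in limma with any compound at either time. Of all genes, 0.0353% passed with vinblastine 0.5 mg/kg at 6 h, 0.274% with colchicine 0.2 mg/kg at 6 h, and 0 with vincristine 0.1 mg/kg at 6 h or with any of the 3 lower doses at 24 h. Under an unadjusted p of 0.05 there was 1 ER chaperone with colchicine 0.2 mg/kg at 6 h. At 24 h there were 1 ATF4 branch member with vincristine 0.1 mg/kg and 1 of each branch with colchicine 0.2 mg/kg. The highest animals of the ATF4 branch at the lower doses were again arrays set apart, at a branch mean of 0.62 with vinblastine 0.5 mg/kg at 6 h and of 0.55 both with that dose and with colchicine 0.2 mg/kg at 24 h. Without the 10 arrays the count was still 0 in all 6 comparisons, beside at most 1.47% of all genes (colchicine 0.2 mg/kg at 6 h).

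The saline groups of 6 and 24 h were also set against each other. Of 34 members 0 passed, beside 0.00883% of all genes, and 4 ER chaperones and 1 ATF4 branch member were under an unadjusted p of 0.05. The count was 0 without the 10 arrays too, beside 0.0795% of all genes. The median change of the ER chaperones from 6 to 24 h in saline was -0.12 log2, in a range from -0.38 to 0.14, and that of all genes was 0.04. Every dose was compared with the saline animals of its own time.

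The transcription factors themselves were read first. Atf4 (probe set 1367624_at), the factor that names its branch, stood at 1555 ± 162 in saline at 6 h and 1644 ± 101 at 24 h. The lower doses left it between 1502 ± 65.7 (colchicine 0.2 mg/kg, 6 h) and 1803 ± 379 (vinblastine 0.5 mg/kg, 24 h), and none of these passed. At 6 h it was 2851 ± 1118 with vinblastine 3 mg/kg, where every animal lay above every saline animal, and the highest reached 5124. With vincristine 1 mg/kg it was 2201 ± 511 at 6 h and with colchicine 2 mg/kg 2342 ± 530, and both groups overlapped saline. At 24 h it was 2135 ± 111 with vinblastine 3 mg/kg, 2429 ± 193 with vincristine 1 mg/kg and 3505 ± 1004 with colchicine 2 mg/kg, and it passed in the last 2 of these groups.

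Xbp1 (1371249_at), the factor made active by IRE1 splicing of its mRNA, showed the later course. These arrays report total Xbp1 mRNA and do not separate the spliced form. In saline it was 1522 ± 168 at 6 h and 1323 ± 133 at 24 h. At 6 h it was 1738 ± 436, 1485 ± 151 and 1348 ± 153 with the higher doses of vinblastine, vincristine and colchicine, and none passed. At 24 h it was 1767 ± 90.0, 1788 ± 145 and 2207 ± 399 in the same order, and all 3 passed. The lower doses stayed between 1277 ± 124 and 1476 ± 47.9.

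Atf6 (1392475_at), the ER membrane factor cleaved on stress, was dimmer, at 279 ± 24.8 and 279 ± 27.3 in saline at 6 and 24 h. It was 341 ± 82.5, 321 ± 20.3 and 310.4 ± 34 with the higher doses of vinblastine, vincristine and colchicine at 6 h. At 24 h it was 322.5 ± 26.6, 338 ± 33.9 and 422 ± 65.2, and in the colchicine group every animal lay above saline. Hspa5 (1370283_at), which encodes BiP, the main ER chaperone, stood at 3951 ± 543 and 3408 ± 361 in saline. At 6 h it was 4315 ± 819, 3832 ± 582 and 3408 ± 618 with vinblastine, vincristine and colchicine. At 24 h it was 4887 ± 641, 4133 ± 507 and 5733 ± 1162, and it passed with vinblastine and colchicine.

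Ddit3 (1369590_a_at), the CHOP factor linked to cell death after prolonged stress, did not pass in any comparison with saline. It was 600.2 ± 59.4 in saline at 6 h, and 773 ± 246, 843 ± 232 and 686 ± 155 with the higher doses of vinblastine, vincristine and colchicine. At 24 h it was 573 ± 118 in saline and 509 ± 68.2, 514 ± 30.7 and 512 ± 86.7 with the higher doses. The 24 h means of all 3 lay below saline within its SD. The change with colchicine 2 mg/kg was -0.15 ± 0.17 log2 (limma adjusted p = 0.496).

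Vinblastine 3 mg/kg against saline at 6 h asks what the early response to a high dose was. In the ATF4 branch 11 of 14 members rose and 0 fell (10 of 13 without Asns), in a comparison where 15.7% of all genes rose and 7.67% fell. Under quantile normalization the split of all genes moved from 1774 up and 868 down to 1471 up and 1318 down. The median log2 change was 0.77 over the branch and 0.74 without Asns, against 0.01 over all genes. In 7 members, Asns among them, every treated animal lay outside the saline range. How often this held over all genes was not counted. The count was 11 without the 10 arrays too, beside 15.8% of all genes in either direction.

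The strongest members were a translation regulator, an amino acid enzyme, a stress protein and a translation repressor. Ppp1r15a (1370174_at) encodes GADD34, which recruits a phosphatase to eIF2alpha, and its animals ran from 868 through a median of 966 to 1024 against 353, 361 and 422 in saline. Both groups were tight and far apart: 961 ± 54.3 against 375 ± 28.6, a 2.50-fold rise (log2 1.32 ± 0.25, limma adjusted p = 7.03e-05). Asns (1387925_at) ran from 81.5 (median 93.2) to 142 against 26.4 (34.4) to 40.8, or 1.22 ± 0.17 log2, again with no overlap. The filter kept Asns only because it was high in such groups, so its test is no support. Nupr1 (1367847_at), a small stress-induced chromatin protein, ran from 191 (334) to 360 against 85.5 (118) to 229. Its groups overlapped, and its change was 1.05 ± 0.33 (0.0145). Eif4ebp1 (1386888_at), which holds back cap-dependent translation, ran from 1035 (1168) to 3099 against 587 (704) to 744, with no overlap, and changed by 0.97 ± 0.19 (0.000141). Its highest animal was replicate 1, one of the 10 arrays.

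Amino acid carriers and one-carbon enzymes followed. Slc3a2 and Slc7a5, the heavy and light chains of the LAT1 carrier of large neutral amino acids, rose by 0.94 ± 0.18 and 0.91 ± 0.21 log2. Slc7a5 ran from 115 (median 153) to 624, the highest being replicate 1, without which it rose by 0.58 (limma adjusted p = 0.0187). Mthfd2, a mitochondrial folate enzyme, rose from 75.8 ± 6.04 to 137.5 ± 18.5 (0.74 ± 0.13, limma adjusted p = 4.93e-05). Atf4 rose by 0.81 ± 0.15 (0.000104), and all 4 of these had no overlap with saline. Trib3, a pseudokinase that ATF4 induces, rose by 0.34 ± 0.09, in 5 of 6 animals. Phgdh, which opens serine synthesis, rose by 0.33 ± 0.10 and Shmt2, which takes serine to glycine, by 0.21 ± 0.06. The call of Phgdh was lost without vinblastine 3 mg/kg replicate 6 (adjusted p = 0.0575) and that of Shmt2 without replicate 1 (0.0782). Ddit3 (0.30 ± 0.17), Vldlr, a lipoprotein receptor (0.15 ± 0.09), and Chac1, which degrades glutathione (0.15 ± 0.09), did not pass.

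Of the 20 ER chaperones 5 passed with vinblastine 3 mg/kg at 6 h, or 25% of the branch beside 15.7% of all genes, and none of the 5 calls held in every omission of a single array. They were Edem1, which hands misfolded glycoproteins to degradation, the DnaJ co-chaperones Dnajb9, Dnajb11 and Dnajc3, and Atf6. Edem1 ran from 236 (median 281) to 507 against 168 (217) to 294 in saline. Dnajb9 ran from 763 (998) to 1306 against 623 (724) to 868. Both groups overlapped saline, and their changes were 0.43 ± 0.14 (limma adjusted p = 0.021) and 0.43 ± 0.16 (0.0413). Dnajc3 ran from 213 (253) to 496 against 184 (201) to 226, a change of 0.40 ± 0.14. Atf6 ran from 294 (313) to 508 against 247 (286) to 308, a change of 0.25 ± 0.08, and Dnajb11 changed by 0.22 ± 0.08. These 3 groups overlapped saline as well.

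The highest animal for Edem1, Dnajc3 and Atf6 was vinblastine 3 mg/kg replicate 1. Without that array 0 of the 5 passed. The change was then 0.28 for Edem1 (adjusted p = 0.192), 0.35 for Dnajb9 (0.172), 0.24 for Dnajc3 (0.252), 0.14 for Atf6 (0.233) and 0.12 for Dnajb11 (0.321). The call of Dnajb9 was lost in 8 of 12 omissions and that of Dnajb11 in 5 of 12. The count was 2 without saline replicate 1 or replicate 6, and 3 without saline replicate 2 or 3 or vinblastine replicate 4. It was also 0 without the 10 arrays, beside 15.8% of all genes in either direction. The median over the branch was 0.12 log2 against 0.01 over all genes. Xbp1 (0.17 ± 0.09) and Hspa5 (0.12 ± 0.12) were among the 15 chaperone members that did not pass.

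Vincristine 1 mg/kg against saline at 6 h gave 1 call, and it was Asns, the member that the filter favoured. Of all genes 2.05% rose and 1.25% fell, 232 up and 142 down, or 208 up and 225 down under quantile normalization. Asns ran from 32.0 (median 70.5) to 89.0 against 26.4 (34.4) to 40.8, with 5 of 6 animals above the saline mean and an overlap (0.65 ± 0.17 log2, limma adjusted p = 0.0215). The call was lost without saline replicate 3 (0.0627) or vincristine replicate 2 (0.0618), 4 (0.0835), 5 (0.0934) or 6 (0.0621). Of the 13 other ATF4 members 0 passed.

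The median change of the ATF4 branch was nonetheless positive in this group. It was 0.40 log2, or 0.37 without Asns, against 0.01 over all genes. With 11 members, Asns among them, the unadjusted p was under 0.05, and the share of all genes under it was not counted. Ppp1r15a was at 693 ± 246 against 375 ± 28.6 (0.77 ± 0.25, limma adjusted p = 0.0645) and Eif4ebp1 at 1055 ± 225 against 688 ± 60.3 (0.58 ± 0.19, 0.0738). Atf4 changed by 0.47 ± 0.15 (0.0748) and Vldlr by 0.29 ± 0.09 (0.0536). The count moved in either direction with single arrays: 7 members passed without vincristine 1 mg/kg replicate 3, 4 without replicate 1, 2 without saline replicate 2 or 4, and 0 without saline replicate 3 or vincristine replicates 4, 5 or 6. With the 10 arrays left out, 11 of 14 rose, where the 14 include Asns. That fit drops vincristine 1 mg/kg replicate 3, the animal with the lowest branch mean (-0.02), so the choice of arrays favoured a higher count. In that fit the share of all genes called, in either direction, was 12.3%. Of the ER chaperones 0 of 20 passed, with a median of -0.01 and 2 under an unadjusted p of 0.05. Without the 10 arrays 2 rose, Edem1 (0.39) and Atf6 (0.20).

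Colchicine 2 mg/kg against saline at 6 h raised 7 of 14 ATF4 members (6 of 13 without Asns), beside 4.89% of all genes that rose and 4.37% that fell. The median was 0.52 log2. Ppp1r15a ran from 264 (median 1038) to 1266 against 353 (361) to 422 in saline. In 5 of 6 animals it was above the saline mean, the remaining animal being replicate 4, one of the 10 arrays, and the change was 1.18 ± 0.25 (limma adjusted p = 0.000786). Asns, which the filter favoured, ran from 37.3 (83.3) to 87.2 against 26.4 (34.4) to 40.8, overlapping through the same animal (0.84 ± 0.17). Eif4ebp1 ran from 749 (1286) to 1450 against 587 (704) to 744, with no overlap (0.79 ± 0.19, 0.0038). Slc3a2 ran from 597 (929) to 1104 against 430 (553) to 649, with an overlap (0.71 ± 0.18, 0.0045).

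Mthfd2 (0.62 ± 0.13), Atf4 (0.56 ± 0.15) and Trib3 (0.27 ± 0.09) completed the 7. The call of Atf4 was lost without colchicine replicate 2 (adjusted p = 0.0555), and that of Trib3 in 7 of 12 omissions of a single array, where the adjusted p reached 0.122. Chac1 (0.25 ± 0.09, limma adjusted p = 0.0511) and Nupr1 (0.93 ± 0.33, 0.061) lay just outside the threshold, and Slc7a5 at 0.49 ± 0.21 (0.136). The count was 10 of 14 without the 10 arrays, beside 19.3% of all genes in either direction.

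None of the 20 ER chaperones passed with colchicine 2 mg/kg at 6 h, and 5 were under an unadjusted p of 0.05. The median was -0.17 log2. Calr, the calcium-binding lectin chaperone calreticulin, was at 2089 ± 153 against 2425 ± 146 (-0.21 ± 0.07, limma adjusted p = 0.0534) with no overlap between the groups. Pdia4, a disulfide isomerase, was at 279 ± 76.3 against 370 ± 47.6 (-0.41 ± 0.16, 0.0822). Without colchicine replicate 4, one of the 10 arrays, 3 members passed. Without all 10, 5 fell and 2 rose, beside 19.3% of all genes in either direction. Those that fell were Pdia4 (-0.50), Creld2 (-0.40), Sdf2l1 (-0.33), Pdia6 (-0.24) and Calr (-0.23), and those that rose were Edem1 (0.42) and Atf6 (0.18).

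Vinblastine 3 mg/kg against saline at 24 h raised 11 of 20 ER chaperones and lowered none, while 5.29% of all genes rose and 4.28% fell. The median was 0.40 log2. In 11 members every treated animal lay above every saline animal, and how often this held over all genes was not counted. One of these, Hyou1 (0.47 ± 0.18, limma adjusted p = 0.0797), did not pass, and its other, dimmer probe set changed by -0.03. Sdf2l1, whose groups overlapped, did pass. Dnajb9, which binds BiP and represses IRE1, ran from 846 (median 1060) to 1177 against 468 (578) to 681. Dnajc3, which inhibits PERK, ran from 250 (295) to 360 against 154 (190) to 212. Manf, a secreted ER protein that protects cells under stress, ran from 1157 (1303) to 1696 against 767 (869) to 956, and Herpud1, a part of the degradation complex, from 1569 (1914) to 2038 against 1048 (1306) to 1541. None of the 4 overlapped saline.

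Their changes were 0.85 ± 0.16 for Dnajb9 (limma adjusted p = 8.33e-05), 0.63 ± 0.14 for Dnajc3 (0.000891), 0.62 ± 0.11 for Manf (2e-05) and 0.55 ± 0.15 for Herpud1 (0.00898). Hspa5 rose by 0.51 ± 0.12, Xbp1 by 0.42 ± 0.09, the ER form of HSP90, Hsp90b1, by 0.38 ± 0.10, Calr by 0.33 ± 0.07 and Dnajb11 by 0.29 ± 0.08, all in 6 of 6 animals. Creld2, a secreted protein with disulfide isomerase activity, rose by 0.50 ± 0.15, and Sdf2l1, a partner of ER DnaJ proteins, by 0.43 ± 0.14. The call of Creld2 was lost without vinblastine replicate 1 (adjusted p = 0.0537) and that of Sdf2l1 in 7 of 12 omissions of a single array, where the adjusted p reached 0.108. A count of 14 resulted without the 10 arrays, beside 15.8% of all genes in either direction.

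The ATF4 branch at this time and dose had 0 members that rose and 1 that fell. Vldlr (1389611_at) ran from 708 (median 827) to 918 against 973 (998) to 1177 in saline, with no overlap (-0.31 ± 0.09 log2, limma adjusted p = 0.0207). The call was lost without saline replicate 3 (0.0729) or vinblastine replicate 3 (0.07). Ppp1r15a was back at 361.5 ± 54.7 against 369 ± 54.3 in saline, and Asns at 38.8 ± 8.08 against 31.3 ± 2.18. Atf4 was at 2135 ± 111 against 1644 ± 101 with no overlap, but its change of 0.37 ± 0.15 did not pass (0.119). The median of the branch was 0.12, and 3 members were under an unadjusted p of 0.05. Without the 10 arrays Atf4 (0.37), Slc7a5 (0.39), Slc3a2 (0.44) and Eif4ebp1 (0.36) rose and Vldlr fell. In that fit 15.8% of all genes were called in either direction.

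Vincristine 1 mg/kg against saline at 24 h raised 9 of 20 ER chaperones, beside 12% of all genes that rose and 18.4% that fell. The split was 1354 up and 2081 down, or 1843 and 1847 under quantile normalization. Dnajc3 ran from 280 (median 303) to 355 against 154 (190) to 212, and Dnajb9 from 798 (888) to 1112 against 468 (578) to 681. Creld2 ran from 300.3 (320) to 490 against 196 (212) to 259, and Herpud1 from 1685 (1804) to 1989 against 1048 (1306) to 1541. All 4 were higher in every treated animal than in any saline animal. Their changes were 0.70 ± 0.14 (limma adjusted p = 4.36e-05), 0.65 ± 0.16 (0.000974), 0.64 ± 0.15 (0.00053) and 0.53 ± 0.15 (0.00401).

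Edem1 (0.52 ± 0.14), Pdia4 (0.50 ± 0.16), Xbp1 (0.43 ± 0.09), Manf (0.39 ± 0.11) and Atf6 (0.26 ± 0.08) also rose with vincristine 1 mg/kg at 24 h. The call of Pdia4 was lost without vincristine replicate 2 (limma adjusted p = 0.0516), and that of Atf6 when its 2 probe sets were averaged. Hspa5 changed by 0.27 ± 0.12 (0.0612), and Hsp90b1, Calr, Pdia6 and Hyou1 did not pass. The median of the branch was 0.25, and 10 rose without the 10 arrays, beside 34.9% of all genes in either direction.

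In the ATF4 branch vincristine 1 mg/kg raised 7 of 14 members at 24 h and lowered 1 (6 and 1 of 13 without Asns), with a median of 0.45 log2. Nupr1 ran from 173 (median 324) to 504 against 78.8 (145) to 212, with an overlap. Eif4ebp1 ran from 1237 (1344) to 1702 against 616 (759) to 807, Slc3a2 from 914 (1055) to 1234 against 546 (605) to 685, and Slc7a5 from 126 (151) to 216 against 73.6 (91.0) to 99.0. These 3 did not overlap saline. The changes were 1.00 ± 0.33 for Nupr1 (limma adjusted p = 0.015), 0.94 ± 0.19 for Eif4ebp1 (9.67e-05), 0.79 ± 0.18 for Slc3a2 (0.000326) and 0.69 ± 0.21 for Slc7a5 (0.00753). Asns (0.66 ± 0.17), Atf4 (0.56 ± 0.15) and Mthfd2 (0.35 ± 0.13) rose as well, and Vldlr fell by 0.33 ± 0.09. The call of Nupr1 was lost without saline replicate 2 (0.0552) or vincristine replicate 4 (0.0527), and that of Mthfd2 in 6 of 12 omissions of a single array, where the adjusted p reached 0.101. When the 10 arrays were left out, 8 rose and 1 fell, beside 34.9% of all genes in either direction.

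Colchicine 2 mg/kg against saline at 24 h moved more members than any other comparison with saline: 17 of 20 ER chaperones rose, and 10 of 14 ATF4 members rose and 1 fell (9 and 1 of 13 without Asns). It was also the broadest comparison over all genes, with 19.3% up and 25.3% down. The median was 0.59 log2 for the ER chaperones and 0.62 for the ATF4 branch. Without the 10 arrays 19 ER chaperones rose, and in the ATF4 branch 11 rose and 1 fell. The share of all genes called in either direction was then 50.6%.

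Creld2 (1377016_at) ran from 212 (median 593) to 705 with colchicine 2 mg/kg against 196 (212) to 259 in saline. Dnajc3 (1370073_at) ran from 208 (478) to 559 against 154 (190) to 212, and Sdf2l1 (1373043_at) from 252 (610) to 730 against 201 (258) to 355. In these 3 genes replicate 1, one of the 10 arrays, was the single treated animal inside the saline range. Dnajb9 (1387116_at) ran from 830 (1299.6) to 1490 against 468 (578) to 681, with no overlap. The changes were 1.14 ± 0.15 for Creld2 (limma adjusted p = 3.22e-09), 1.13 ± 0.14 for Dnajc3 (5.45e-10), 1.08 ± 0.16 for Dnajb9 (4.54e-08) and 1.00 ± 0.14 for Sdf2l1 (1.13e-08), a rise of about 2.20-, 2.19-, 2.12- and 2.00-fold.

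Chaperones and folding enzymes rose as well. Hspa5 rose by 0.73 ± 0.12, Hsp90b1 by 0.55 ± 0.10, Calr by 0.46 ± 0.07, and the disulfide isomerases Pdia4, Pdia3 and Pdia6 by 0.77 ± 0.16, 0.50 ± 0.12 and 0.37 ± 0.09. Manf rose by 0.90 ± 0.11, Dnajb11 by 0.56 ± 0.08, Xbp1 by 0.71 ± 0.09 and Atf6 by 0.56 ± 0.08. Of the degradation genes, Edem1 rose by 0.75 ± 0.14, Herpud1 by 0.61 ± 0.15 and Syvn1, the ubiquitin ligase HRD1, by 0.43 ± 0.10. Its partner Sel1l (0.12 ± 0.10, limma adjusted p = 0.353), the lectin chaperone Canx (0.21 ± 0.09, 0.0677) and Hyou1, an exchange factor of BiP (0.40 ± 0.18, 0.0556), did not pass.

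Amino acid carriers and Eif4ebp1 led the ATF4 branch with colchicine 2 mg/kg at 24 h. Eif4ebp1 ran from 811 (median 2966) to 3415 against 616 (759) to 807 in saline, and Slc7a5 (1387280_a_at) from 107 (338) to 602 against 73.6 (91.0) to 99.0. Neither overlapped saline, although replicate 1 lay close to it. Slc3a2 (1398771_at) ran from 634 (1696) to 2065 against 546 (605) to 685, with an overlap through that replicate, and Ppp1r15a from 488 (891) to 1038 against 310.0 (349.9) to 438 with none. The changes were 1.70 ± 0.19 for Eif4ebp1 (3.25-fold, limma adjusted p = 8.94e-11), 1.61 ± 0.21 for Slc7a5 (3.06-fold, 1.72e-09), 1.20 ± 0.18 for Slc3a2 (5.28e-08) and 1.13 ± 0.25 for Ppp1r15a (0.000103).

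Asns (1.05 ± 0.17), Atf4 (1.02 ± 0.15), Mthfd2 (0.60 ± 0.13), Trib3 (0.43 ± 0.09), Chac1 (0.24 ± 0.09) and Shmt2 (0.22 ± 0.06) rose with colchicine 2 mg/kg at 24 h as well. The call of Chac1 was lost without saline replicate 3 (limma adjusted p = 0.0506) or colchicine replicate 3 (0.131). Vldlr fell by 0.30 ± 0.09, while Phgdh (0.12 ± 0.10), Nupr1 (0.63 ± 0.33) and Ddit3 (-0.15 ± 0.17) did not pass. Psat1, which was not tested, was at 36.4 ± 9.22 against 21.5 ± 2.97 in saline, below the array medians of 57.5 to 63.2.

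**Figure D2:**
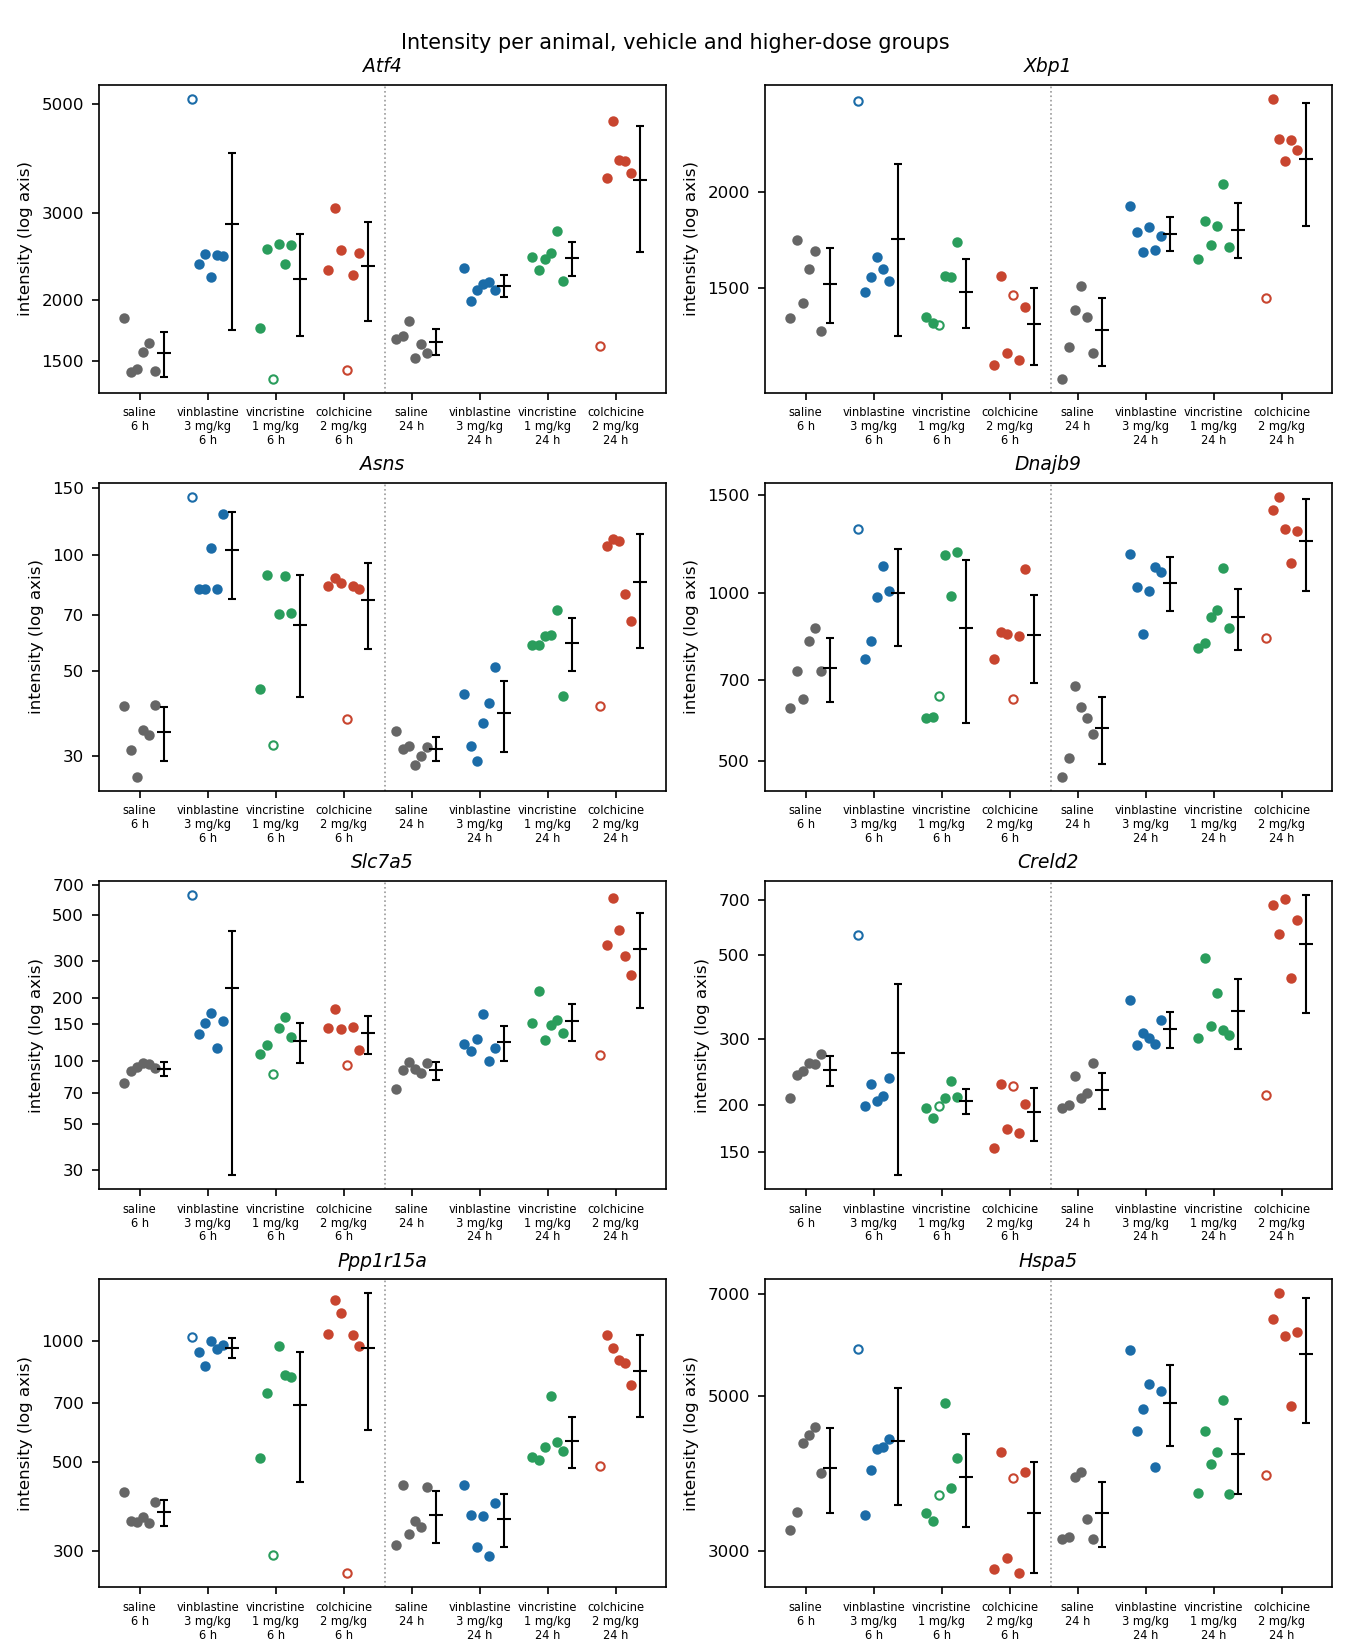
Intensity per animal (log axis) of 4 ATF4 branch members and 4 ER chaperone members in saline and the 3 higher-dose groups at 6 h (left of the dotted line) and 24 h (right), with the mean ± SD in black and the arrays set apart as open circles. Ppp1r15a stands near 961 with vinblastine 3 mg/kg at 6 h and near 361.5 at 24 h, while Creld2 reaches its highest mean, 535, with colchicine 2 mg/kg at 24 h.

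**Figure D3:**
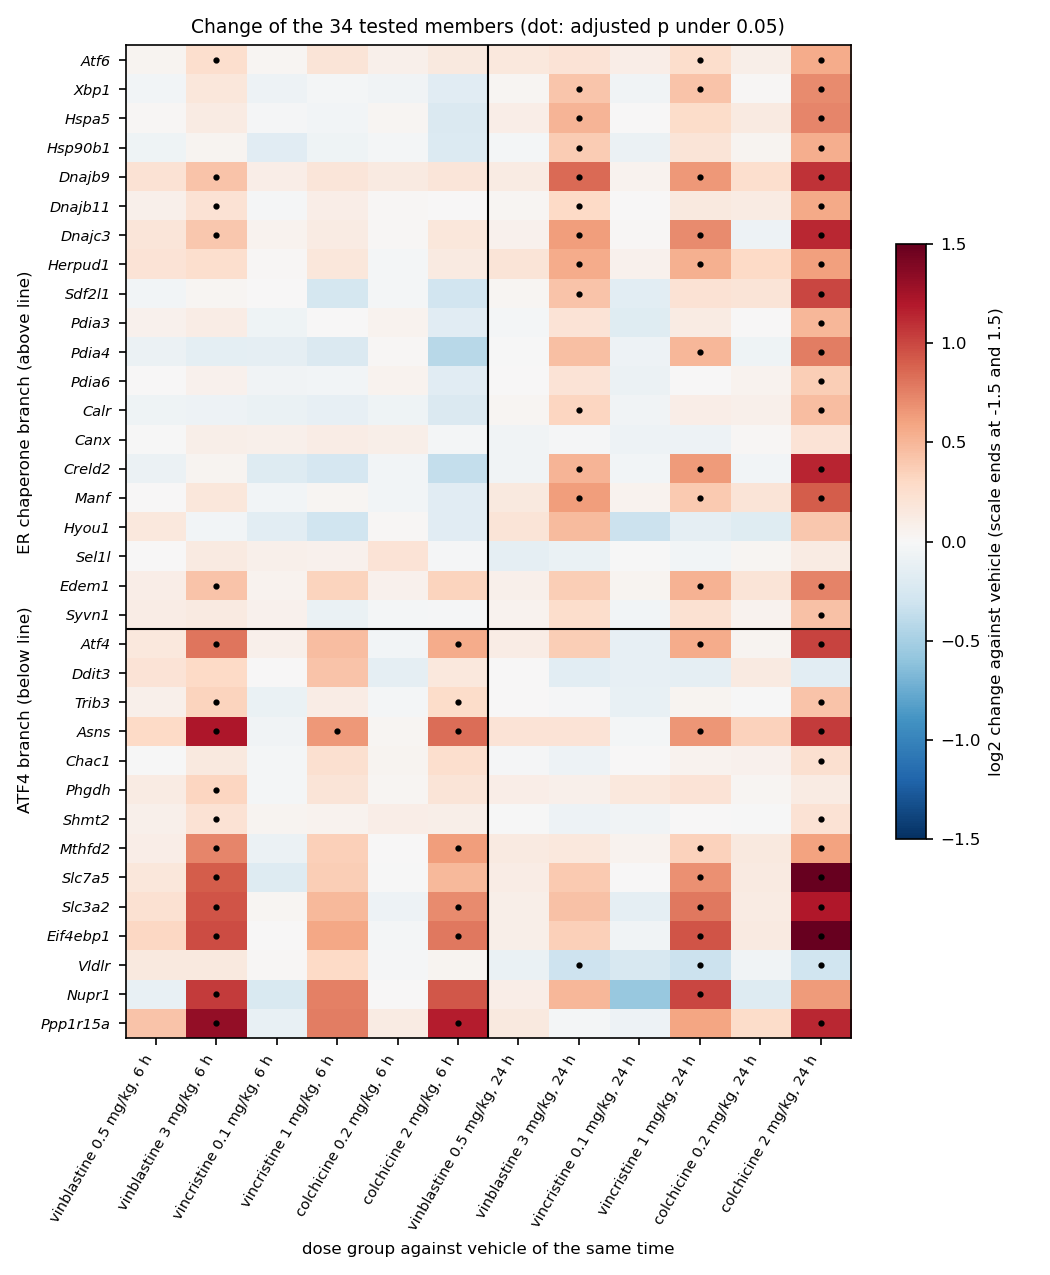
Log2 change against saline of the same time for the 34 tested members (lines) in the 12 dose groups (columns), with a dot where the adjusted p is under 0.05. Dots lie in the higher-dose columns alone, at 6 h mostly in the ATF4 branch. At 24 h they mark 11, 9 and 17 of the 20 ER chaperones and 1, 8 and 11 of the 14 ATF4 members with vinblastine, vincristine and colchicine, 1 of the latter in each column being the fall of Vldlr.

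Whether the change differed between 24 and 6 h was tested directly at each higher dose, as the later change less the earlier one. Shares of all genes given for these differences cover both directions. After colchicine 2 mg/kg, 15 of 20 ER chaperones had a higher change at 24 h and none a lower one, beside 18.9% of all genes in either direction. The median difference was 0.67 log2. It was 1.49 ± 0.21 for Creld2 (limma adjusted p = 4.6e-06), 1.29 for Sdf2l1, 1.18 for Pdia4 and 1.08 for Manf. Dnajc3 and Hspa5 differed by 0.95 each and Xbp1 by 0.89. In the ATF4 branch Slc7a5 (1.13, 0.0035) and Eif4ebp1 (0.91, 0.012) had a higher change at 24 h, and the median difference was 0.06. With the 10 arrays left out, 17 ER chaperones had a higher change at 24 h, and in the ATF4 branch 4 a higher and 2 a lower one. The share of all genes was then 28.2%.

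With vinblastine 3 mg/kg the ATF4 branch went the other way, beside 4.43% of all genes. The change at 24 h was lower than at 6 h for 4 members (3 of 13 without Asns): Ppp1r15a (-1.35 ± 0.35, limma adjusted p = 0.016), Asns (-1.01 ± 0.24, 0.0092), Vldlr (-0.45, 0.031) and Shmt2 (-0.29, 0.042). The median difference over the branch was -0.48. The call of Shmt2 was lost in 11 of 24 omissions of a single array and that of Vldlr in 5 of 24. Of the ER chaperones Calr alone passed (0.40 ± 0.11, 0.017), with a median of 0.28 over the branch and 8 members under an unadjusted p of 0.05. When the 10 arrays were left out, 9 ER chaperones had a higher change at 24 h and 6 ATF4 members a lower one. The share of all genes was then 8.15%.

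After vincristine 1 mg/kg, 4 ER chaperones had a higher change at 24 h, beside 12.2% of all genes. They were Creld2 (0.89, limma adjusted p = 0.0025), Pdia4 (0.72, 0.022), Dnajc3 (0.58, 0.035) and Xbp1 (0.47, 0.013), and the median was 0.29. The call of Dnajc3 was lost in 8 of 24 omissions of a single array and that of Pdia4 in 2 of 24. In the ATF4 branch Vldlr had a lower change (-0.62, 0.00077), and the median difference was -0.01. Leaving out the 10 arrays gave 5 ER chaperones with a higher change and 2 ATF4 members with a lower one, beside 15.8% of all genes. The splits of all genes for vinblastine, vincristine and colchicine were 201 up and 301 down, 399 and 988, and 713 and 1425. Under quantile normalization they were 372 and 227, 674 and 578, and 1132 and 1264.

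**Figure D4:**
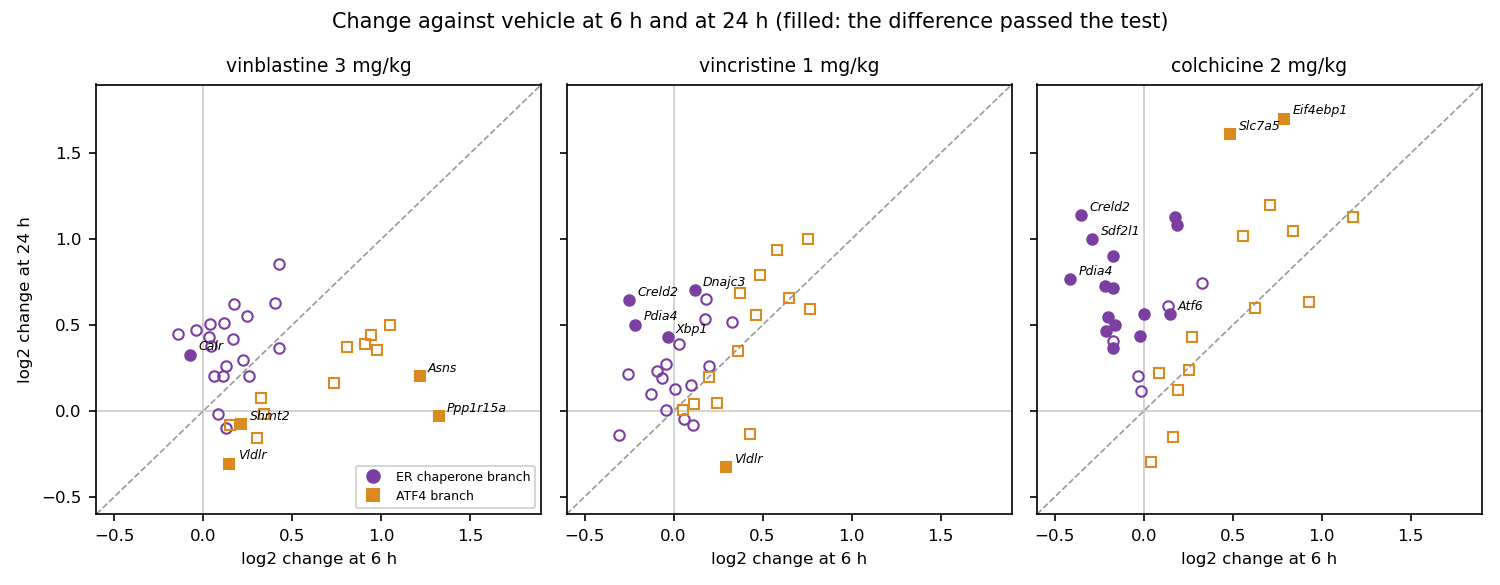
Log2 change against saline at 24 h (vertical) plotted against that at 6 h (horizontal) for each tested member at the higher dose of vinblastine, vincristine and colchicine; filled points are members whose change differed between the times in the limma fit. With colchicine 2 mg/kg 15 ER chaperones are filled and lie above the diagonal, and with vinblastine 3 mg/kg the 4 filled ATF4 members lie below it.

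The higher dose was also set against the lower dose of the same compound, which uses the same higher-dose animals as the comparisons with saline. Shares of all genes in these dose comparisons cover both directions unless a direction is named. At 6 h 9 of 34 members were higher with vinblastine 3 than 0.5 mg/kg, all in the ATF4 branch (8 without Asns), beside 8.52% of all genes. All genes split into 658 up and 307 down, or 652 and 568 under quantile normalization. Without vinblastine 3 mg/kg replicate 1 the count was 2, and without vinblastine 0.5 mg/kg replicate 1 it was 5. Asns (0.91 ± 0.17 log2, limma adjusted p = 0.0023), Ppp1r15a (0.90 ± 0.25, 0.0155) and Atf4 (0.65 ± 0.15, 0.00653) were among them. Without vinblastine 3 mg/kg replicate 1 the adjusted p was 0.0596 for Ppp1r15a and 0.0815 for Atf4, and without vinblastine 0.5 mg/kg replicate 5 it was 0.0591 for Ppp1r15a. Leaving out the 10 arrays gave 8 ATF4 members higher and 0 ER chaperones, beside 9.66% of all genes.

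With colchicine 2 against 0.2 mg/kg at 6 h 7 were higher, again all in the ATF4 branch (6 without Asns), beside 9.23% of all genes (4.46% higher). Without colchicine 2 mg/kg replicate 4 the count was 11. Ppp1r15a differed by 1.05 ± 0.25 (limma adjusted p = 0.00253) and Atf4 by 0.60 ± 0.15 (0.00622). With vincristine 1 against 0.1 mg/kg 2 were higher, Ppp1r15a (0.87 ± 0.26, limma adjusted p = 0.0461) and Asns, which the filter favoured (0.70 ± 0.18, 0.0205). The count was 1 without Asns, beside 2.81% of all genes. These split into 182 up and 136 down, or 189 and 216 under quantile normalization. Ppp1r15a lost its call in several omissions of a single array, where the limma adjusted p reached 0.158. The vincristine count was 8 without vincristine 1 mg/kg replicate 3. It was 0 without vincristine 1 mg/kg replicate 2, 4, 5 or 6 or vincristine 0.1 mg/kg replicate 3, and 1 without vincristine 0.1 mg/kg replicate 2, 4 or 5. Leaving out the 10 arrays gave 9 ATF4 members higher and 3 ER chaperones lower with colchicine, and 11 ATF4 members and 1 ER chaperone higher with vincristine. The shares of all genes were then 15.2% with colchicine and 11.3% with vincristine.

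At 24 h the dose difference reached the ER chaperones. Vinblastine 3 against 0.5 mg/kg had 9 of 20 ER chaperones and 0 of 14 ATF4 members higher, beside 5.48% of all genes (3.92% higher). Of the ATF4 members 2 were under an unadjusted p of 0.05. Dnajb9 differed by 0.73 ± 0.16 log2 (limma adjusted p = 0.0014) and Xbp1 by 0.39 ± 0.09 (0.00442). Vincristine 1 against 0.1 mg/kg had 10 ER chaperones and 7 ATF4 members higher (6 without Asns), beside 23.9% of all genes (12.3% higher). Dnajc3 was at 0.68 ± 0.14 (limma adjusted p = 0.000236) and Eif4ebp1 at 0.99 ± 0.20 (0.000134). Colchicine 2 against 0.2 mg/kg had 17 ER chaperones and 10 ATF4 members higher (9 without Asns) and 1 lower, beside 41.4% of all genes (18.8% higher). Dnajc3 differed there by 1.20 ± 0.14 (1.74e-10), and Eif4ebp1 by 1.57 ± 0.19 (1.08e-09). Without the 10 arrays the ER chaperones higher were 13, 15 and 18 with vinblastine, vincristine and colchicine, and the ATF4 members higher were 4, 8 and 11. The shares of all genes were then 11.1%, 27.3% and 48.9% in that order.

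The mg/kg doses of the compounds were not matched, so their values are set side by side and no compound was tested against another. All 3 shared the saline animals of their time. At 24 h Ppp1r15a changed by -0.03 ± 0.25 with vinblastine 3 mg/kg, 0.59 ± 0.25 with vincristine 1 mg/kg and 1.13 ± 0.25 with colchicine 2 mg/kg. Eif4ebp1 changed by 0.36 ± 0.19, 0.94 ± 0.19 and 1.70 ± 0.19 in that order, and Hspa5 by 0.51 ± 0.12, 0.27 ± 0.12 and 0.73 ± 0.12. Edem1 changed by 0.37 ± 0.14, 0.52 ± 0.14 and 0.75 ± 0.14.

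Where a member had several probe sets, they did not always move alike. With colchicine 2 mg/kg at 24 h Atf6 changed by 0.56 log2 on the probe set used and by 0.10 on the other, dimmer one. Pdia3 changed by 0.50 and 0.21, and Edem1 by 0.75, 0.51 and 0.29. Canx, a chaperone that did not pass, changed by 0.21, 0.02 and 0.20. The 4 probe sets of Vldlr changed by -0.30, -0.30, -1.28 and -0.39, all downward. At 6 h with vinblastine 3 mg/kg Atf6 changed by 0.25 and 0.03, and Vldlr by 0.15, 0.21, -0.37 and 0.07. At 24 h Hyou1 changed by 0.47 and -0.03 with vinblastine 3 mg/kg, and Edem1 by 0.52, 0.28 and 0.10 with vincristine 1 mg/kg.

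Other genes of the pathways came from a list of 61, of which 54 were tested. They are the sensors and regulators (16 tested), ER folding and degradation genes (16), and amino acid supply and tRNA charging genes (22). With vinblastine 3 mg/kg at 6 h 28 rose and 1 fell, beside 15.7% and 7.67% of all genes, and 18 of the 28 were amino acid and tRNA genes. Atf3, a stress-induced factor downstream of ATF4, was at 184 ± 49.2 against 23.8 ± 4.45 (2.30 ± 0.47 log2, limma adjusted p = 0.000201). Cebpb, a partner of ATF4 at CARE sites and a factor of inflammation, was at 1127 ± 638 against 210.2 ± 69.7 (2.26 ± 0.36, 6.71e-06). Tars1, which charges threonine tRNA, rose by 0.69 ± 0.14 (0.000137). The gene that fell was Pdia5, a disulfide isomerase, by 0.53.

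With vincristine 1 mg/kg at 6 h 5 of the 54 rose and with colchicine 2 mg/kg 9, beside 2.05% and 4.89% of all genes, with 0 ER folding genes in either. Atf3, which the filter favoured, was at 202 ± 230 and 206 ± 131 in these groups and Cebpb at 626 ± 318 and 816 ± 326, all 6 animals above the saline mean in each. Aldh18a1, of proline synthesis, rose with vincristine (0.38, limma adjusted p = 0.0194), and Eprs1, which charges glutamate and proline tRNA, with colchicine (0.34, 0.00304).

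At 24 h 7 of the 54 rose with vinblastine 3 mg/kg, beside 5.29% of all genes, and 0 of them were amino acid or tRNA genes. Cebpb was at 658 ± 227 against 215 ± 55.2 in saline, and Ddit4, an inhibitor of mTORC1, at 857 ± 268 against 299 ± 65.2 (1.44 ± 0.24 log2, limma adjusted p = 1.54e-05). Eif2ak2, the kinase PKR that senses double-stranded RNA, rose by 0.46 (0.0026). After vincristine 1 mg/kg, 17 rose and 2 fell, beside 12% and 18.4% of all genes, of which 9 and 1 were amino acid and tRNA genes, and those that fell were Wfs1 (-0.24) and the carrier Slc38a2 (-0.32). After colchicine 2 mg/kg, 33 rose and 3 fell, beside 19.3% and 25.3% of all genes, 16 of the 33 in the amino acid and tRNA list and 11 in ER folding. Sec61a1, the pore through which proteins enter the ER, was at 528 ± 55.3 with vincristine and 728 ± 190 with colchicine against 369 ± 25.3. Those that fell with colchicine were Mbtps1 (-0.18), Ero1a (-0.24) and Sil1 (-0.25).

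Outside the members, 28 further genes carried an ERSE or ERSE-II in the same promoter window, and 15 of them were tested. After colchicine 2 mg/kg at 24 h, 4 rose, Rcl1 (1.49 log2), Zfand2a (1.02), Nucb1 (0.61) and Hnrnpa3 (0.39), and 2 fell, Ppm1l (-1.19) and Ankmy2 (-0.71), in a comparison where 19.3% of all genes rose and 25.3% fell. These 6 were named after their values were seen.

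Markers of other cells moved along with the members in some groups. The summed level of the 4 neutrophil markers on the array, of which S100a8 and S100a9 were tested, was 109 to 173 in saline at 6 h. It was 878 to 1566 with vinblastine 3 mg/kg, where both tested markers rose. It was 108 to 831 with vincristine 1 mg/kg (1 rose) and 105 to 1112 with colchicine 2 mg/kg (both rose) at 6 h. At 24 h it was 181 to 239, 297 to 660 and 172 to 665 with the 3 compounds against 111 to 148 in saline, and 0, 2 and 2 of the 2 rose. Csf3r and Cxcr2, which define neutrophils, were under the filter. All 4 were dim in saline, and whether S100a8 and S100a9 passed the filter only through treated groups was not counted. Their rise is therefore given as values alone. Of 5 macrophage markers 0 rose and 2 fell at 6 h with each compound, while at 24 h 2, 3 and 2 rose and 0, 0 and 1 fell with vinblastine, vincristine and colchicine. Of 5 endothelial markers Emcn fell in 5 of the 6 higher-dose comparisons, by 0.80 log2 with colchicine 2 mg/kg at 24 h, where Pecam1 (0.53), Kdr (0.28) and Tek (0.17) rose. Their summed level there was 4619 to 5848 against 4316 to 5758 in saline. The part of these cells in the changes of the members was not tested.

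Plasma cells and fibroblasts carry much ER, and their markers were read as well. Of B and plasma cell markers 1 was tested and passed in none of the 6 higher-dose comparisons. With colchicine 2 mg/kg at 24 h 1 of 6 fibroblast markers rose and 5 fell, and their sum was 18696 to 27476 against 28264 to 35437 in saline. The cardiomyocyte sum in that group was 124592 to 157264, with 0 of 7 markers up and 3 down. With vincristine 1 mg/kg at 24 h 3 of 6 fibroblast and 2 of 7 cardiomyocyte markers fell and 0 rose. Their part in the result was not tested. The log2 difference of 3' and 5' control probe sets, a sign of RNA quality, had group medians from 0.27 to 0.36 for Gapdh and from 0.70 to 0.93 for beta actin. The beta actin median at 24 h was 0.72 in saline and 0.83, 0.87 and 0.93 with the higher doses of vinblastine, vincristine and colchicine, and its part in the result was not tested. At 6 h it was 0.81 in saline and 0.87, 0.79 and 0.80 in the same order. The highest single values, 0.735 for Gapdh and 1.34 for beta actin, were in the vinblastine 3 mg/kg group at 24 h.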

How the data were processed

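Heart RNA of 82 rats was measured on Affymetrix 3' arrays after labelling from 0.5 ug total RNA, per the labels' protocols. The deposited values are linear intensity per probe set, from 9.76 to 39497, as the authors normalized them between arrays; how probes were summarised is not given in the sources used here. Array medians lay between 57.5 and 63.2, arrays correlated with their group at 0.946 to 0.995, and the number of arrays limits the precision. Of 31099 probe sets, 57 were controls, 20826 had 1 symbol, 436 several and 9780 none in the array's annotation; 14217 symbols resulted.

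From these values, log2(intensity + 16) of the brightest probe set per gene was fitted with limma 3.58.1 (R 4.3.3, data.table version 1.17.8) as group means over all 82 arrays (residual df 68, prior df 4.7), with 22 comparisons and Benjamini-Hochberg adjustment over 11323 genes above the 40th percentile of an array on at least 5 arrays. The code was tested on simulated data. A pseudocount understates changes of dim genes. Members and gene lists were chosen with earlier results of these data known. Per higher-dose comparison, up to 4 called members of a branch with the largest change are given with their range over animals, and up to 3 other pathway genes; Atf4, Atf6, Xbp1, Ddit3 and Hspa5 are given in every group. P-values set a difference of group means against the spread between animals, taken per gene as 1 variance pooled over the 14 groups and moderated by limma. That spread was not equal: the SD of Slc7a5 was 197 with vinblastine 3 mg/kg at 6 h and 6.87 in saline at 6 h. Alternatives covered pseudocount, filter, normalization, probe sets, samples fitted, array weights, a replicate block and arrays left out. Compounds were not tested against each other because doses differ. Promoters are RefSeq's (GRCr8), matched by symbol: 30 of 35 members had an entry.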

Additional observations from a re-analysis of the deposited data

Results flagged for a closer look

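Animals far from the rest of their group were looked for among the named members, in 55 groups of values, with Dixon's test at its 95% critical value. It marked 11 groups (20%), and 10 of the 11 fell on arrays that also lay nearer another group over their whole profile. Chance marks about 1 in 20 of independent groups, but these genes share arrays and were named for a large change, so the shares cannot be compared. Replicate 1 of vinblastine 3 mg/kg at 6 h stood high for Edem1 (506.7, the next animal 295.8), Dnajc3 (495.6, next 271), Atf6 (508.5, next 316) and Eif4ebp1 (3099, next 1301). Replicate 4 of colchicine 2 mg/kg at 6 h stood low for Ppp1r15a (264, next 972), Asns (37.3, next 81.7) and Eif4ebp1 (749, next 1213). Replicate 1 of colchicine 2 mg/kg at 24 h stood low for Dnajc3 (208, next 401), Sdf2l1 (252, next 507) and Eif4ebp1 (811, next 2505). Saline replicate 3 at 24 h stood high for Vldlr (1177, next 1026).

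The change against saline differed between 24 and 6 h, by the limma test of that difference, for 27 results at the higher doses. With colchicine 2 mg/kg the 15 ER chaperones differed by 1.49 (Creld2), 1.29 (Sdf2l1), 1.18 (Pdia4), 1.08 (Manf), 0.95 (Dnajc3), 0.95 (Hspa5), 0.90 (Dnajb9), 0.89 (Xbp1), 0.75 (Hsp90b1), 0.68 (Calr), 0.67 (Pdia3), 0.56 (Dnajb11), 0.54 (Pdia6), 0.45 (Syvn1) and 0.42 (Atf6) log2, and the ATF4 members Slc7a5 and Eif4ebp1 by 1.13 and 0.91. With vincristine 1 mg/kg the differences were 0.89 (Creld2), 0.72 (Pdia4), 0.58 (Dnajc3), 0.47 (Xbp1) and -0.62 (Vldlr). With vinblastine 3 mg/kg they were 0.40 (Calr), -0.29 (Shmt2), -0.45 (Vldlr), -1.01 (Asns) and -1.35 (Ppp1r15a).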

How the results depend on the processing

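No called member reversed its direction under any alternative in which it was tested. Of 81 calls against saline, 67 were kept under every planned and added setting that tested the member, and 64 under every omission of 1 array. A member that the stricter filter dropped was not counted as lost there. The count at the lower doses and at 24 h for the ER chaperones of vinblastine and colchicine stayed within 1.5 times of its main value. ER chaperones with vinblastine at 6 h (5) became 2 under quantile normalization and 0 in a fit of the compared groups alone, with array weights, without the 6 arrays whose description ends in _2 and without the 10 arrays set apart. The ATF4 branch there (11) became 7 with only the compared groups and 7 without the 6. With vincristine at 6 h the ER chaperones (0) became 2 without the 10, and the ATF4 branch (1) became 2 with the stricter filter, 2 with only the compared groups, 2 with array weights, 4 without the 6 and 11 without the 10. With colchicine at 6 h the ER chaperones (0) became 1 with the stricter filter, 2 under quantile normalization, 1 with only the compared groups, 9 with array weights (1 up, 8 down), 2 without the 6 and 7 without the 10, and the ATF4 branch (7) became 11 with array weights. At 24 h the ATF4 branch with vinblastine (1) became 5 with only the compared groups, 5 with array weights, 2 without the 6 and 5 without the 10, and the ER chaperones with vincristine (9) became 14 with array weights. Higher against lower dose at 6 h, vinblastine (9) became 0 with only the compared groups and 1 without the 6; vincristine (2) became 1 with a pseudocount of 64, 1 with no filter, 5 with only the compared groups, 9 with array weights, 1 without the 6 and 12 without the 10; colchicine (7) became 22 with array weights (12 up, 10 down) and 12 without the 10. At 24 h vinblastine (9) became 14 with array weights and 17 without the 10. The time difference with vinblastine (5) became 8 under quantile normalization, 12 with array weights and 15 without the 10, and with vincristine (5) 9, 8 with only the compared groups and 8 with array weights. Saline at 24 against 6 h (0) became 1 under quantile normalization and 1 with array weights. The share of all genes called moved too where the 10 arrays were left out, as given with the comparisons. The cause of these moves was not tested.

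Leaving out 1 array at a time, the ER chaperone count ran from 0 to 5 (vinblastine), 0 to 0 (vincristine) and 0 to 3 (colchicine) at 6 h and from 9 to 12, 8 to 11 and 17 to 18 at 24 h. The ATF4 count ran from 10 to 11, 0 to 7 and 5 to 9 at 6 h and from 0 to 1, 6 to 8 and 10 to 12 at 24 h. Higher against lower dose ran from 2 to 9, 0 to 8 and 6 to 11 at 6 h and from 7 to 10, 12 to 18 and 26 to 29 at 24 h, and the time difference from 3 to 7, 3 to 6 and 17 to 21. For the time difference with vinblastine the count of 3 came without saline replicate 3 of either time or vinblastine replicate 4 at 6 h, and with vincristine it was 3 without replicate 2 at 6 h.

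Replicate numbers are shared by the groups, and whether they pair animals was not tested. Same-numbered higher-dose and saline arrays correlated at -0.07 to 0.32 at 6 h and -0.25 to 0.20 at 24 h in their deviations from the group means. The same-numbered saline array was the best match for 3, 1 and 3 of 6 arrays with vinblastine, vincristine and colchicine at 6 h. At 24 h it was the best match for 0, 0 and 1. With the number as a replicate block the vincristine count of higher against lower dose at 6 h moved from 2 to 1, and 4 member calls in all were lost. No scaling moved the median of all genes by over 0.1 log2.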
